A study of Mus musculus with 6 samples.

Results

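The cell cycle and DNA replication genes described here are 45 of the 22134 genes in a table of expression values from mouse adipose tissue, chosen by symbol from a list of G1/S cyclins and kinases (9 genes), replication genes (12), G2 and mitosis genes (17), inhibitors of cyclin-dependent kinases (5), and Rb1 and Trp53. Total RNA was sequenced from 3 samples of creeping fat, taken from wild-type mice whose colon had received repeated cautery injury, and from 3 samples of mesenteric adipose tissue of wild-type mice with no injury. Creeping fat is mesenteric fat that spreads over damaged bowel. The sources used here do not give the strain, the age or the time after injury. The labels do not say whether each sample is a different animal, so the p-values speak of the spread among these 6 samples alone, and that spread may be technical in part. Values are FPKM, which divide a gene's fragments by both its length and the depth of the library, so levels of different genes can be compared. All 45 members were found, and the 39 that reached 1 FPKM in 3 or more of the 6 libraries were tested. Ccne2, Cdc6, Bub1, Hmmr, Cenpf and Cdkn2a were too low and are given by their values.

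Entry into the cell cycle runs through the D cyclins, which bind the kinases Cdk4 and Cdk6 and phosphorylate the retinoblastoma protein Rb1. Phosphorylated Rb1 releases E2F factors, which switch on cyclin E and the genes that license and copy DNA. The mitotic genes follow later, under the B-Myb and Foxm1 complexes, and INK4 proteins such as Cdkn2c and CIP/KIP proteins such as Cdkn1a hold the kinases back. Mature adipocytes rarely divide, whereas their progenitors, macrophages, lymphocytes and endothelial cells of the tissue can. In a bulk sample, fewer cells of a type and less RNA per cell cannot be told apart.

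The mitotic and the replication members differ in their promoters, and 5 of them are shown here because the results below turn on these groups and because their promoters hold the words searched for. Sequences are from RefSeq on GRCm38.p6, from 150 bases before the annotated start of transcription to base 20 of the transcript, read 5′ to 3′ on the gene's own strand. Capitals mark the cell cycle homology region word TTTGAA (CHR), the CCAAT box, and the E2F words TTTCCCGC, TTTCGCGC, TTTGCCGC and TTTGGCGC, each on either strand (TTTGAA reads TTCAAA and CCAAT reads ATTGG on the other strand). Cdk1, the kinase that drives mitosis, lies at chr10:69352893-69353062 on the minus strand, Ccnb2, a B cyclin that activates it, at chr9:70421535-70421704 (minus), Cdc20, an activator of the anaphase-promoting complex, at chr4:118437324-118437493 (minus), Ube2c, a ubiquitin-conjugating enzyme of that complex, at chr2:164769779-164769948 (plus), and Mcm6, a subunit of the replicative helicase, at chr1:128359686-128359855 (minus).
Cdk1: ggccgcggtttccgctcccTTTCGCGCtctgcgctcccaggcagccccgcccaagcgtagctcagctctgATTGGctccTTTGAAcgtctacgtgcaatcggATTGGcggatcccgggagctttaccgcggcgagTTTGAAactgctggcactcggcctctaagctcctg
Ccnb2: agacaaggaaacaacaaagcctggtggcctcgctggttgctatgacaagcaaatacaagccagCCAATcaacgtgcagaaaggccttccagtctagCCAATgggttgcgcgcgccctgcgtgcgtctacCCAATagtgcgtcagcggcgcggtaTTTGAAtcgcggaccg
Cdc20: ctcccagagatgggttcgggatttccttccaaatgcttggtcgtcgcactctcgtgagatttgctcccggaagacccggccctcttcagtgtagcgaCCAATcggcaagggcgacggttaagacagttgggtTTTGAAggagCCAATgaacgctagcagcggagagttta
Ube2c: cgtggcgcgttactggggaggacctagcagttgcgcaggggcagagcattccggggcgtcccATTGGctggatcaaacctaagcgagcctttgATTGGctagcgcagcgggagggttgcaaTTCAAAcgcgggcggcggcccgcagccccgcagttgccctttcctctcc
Mcm6: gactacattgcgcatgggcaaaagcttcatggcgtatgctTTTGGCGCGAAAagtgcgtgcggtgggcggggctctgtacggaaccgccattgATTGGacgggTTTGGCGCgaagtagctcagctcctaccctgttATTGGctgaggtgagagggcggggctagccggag
The 2 CHR words of Cdk1 begin 71 and 15 bases before the start, and that of Cdc20 begins 18 bases before it. The Ube2c word begins 29 bases before the start, and in Ccnb2 a word begins at base 5 of the transcript. Mcm6 holds 3 E2F words, which begin 110, 106 and 47 bases before the start, the first 2 of them overlapping on opposite strands, and no CHR word.

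Over the whole RefSeq window, from 250 bases before to 50 after the start, 37 of the 45 members had a promoter entry. The CHR word was found in 11 of 14 mitotic members (78.6%), in 1 of 11 replication members (9.09%, Mcm2) and in 5466 of 27025 genes overall (20.2%). E2F words were found in 1 of 14 mitotic members (7.14%, Cdk1), in 6 of 11 replication members (54.5%: Cdc6, Cdt1, Mcm3, Mcm5, Mcm6 and Mcm7) and in 704 genes overall (2.6%). The CCAAT box was found in 13 of 14 mitotic members (92.9%), 8 of 11 replication members (72.7%) and 41.1% of all genes. Among mitosis genes outside the 45, 26 of 40 held the CHR word (65%) and 4 of 40 an E2F word (10%), and among other replication genes 7 of 35 (20%) and 12 of 35 (34.3%) did. No CHR word was found in the windows of Birc5, Bub1 or Ccnb1. These matches describe the letters in the windows and do not show binding.

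**Figure D1:**
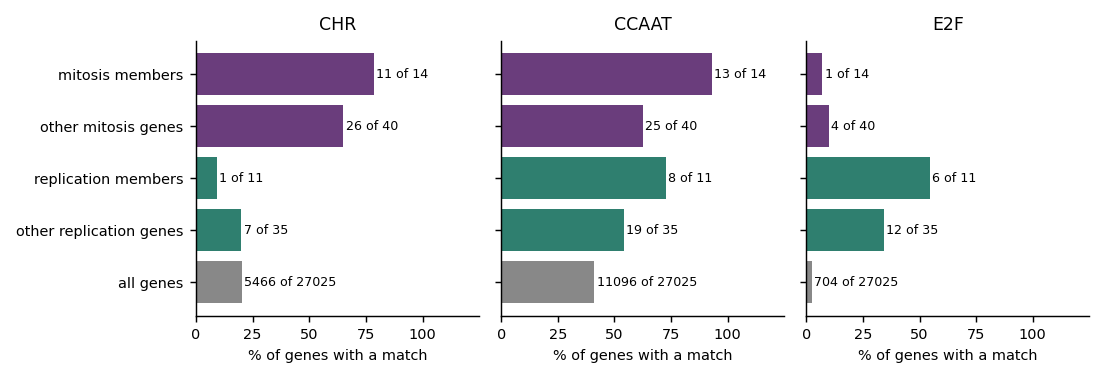
Share of genes (x axis, %) whose RefSeq promoter window holds each motif on either strand, for mitosis members, other mitosis genes, replication members, other replication genes and all genes (y axis); the numbers beside the bars are genes with a match of genes with an entry. The CHR word is in 78.6% of mitosis members and 9.09% of replication members, and E2F words in 7.14% and 54.5%.

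Recovered library totals ran from 32837045 to 36158204 reads in creeping fat and 31186018 to 43415696 reads in controls, so depths overlapped. On the first principal component (66.7% of the variance) the groups lay apart, and the second (19.7%) set control 2 (-56.0) apart from the other 5 libraries (0.1 to 28.7). Seminal vesicle genes made up 5.2% to 9.34% of all FPKM in creeping fat and 0.00735% to 0.0281% in controls, and pancreas acinar genes 0.00803% to 1.69% in creeping fat and 5.04% to 13% in controls. The second library of each group had the most of the pancreas genes, as it did of the mitotic genes described below, and the link between them was not tested. With both lists left out and the rest rescaled, no tested member gained or lost its call. That step takes out the listed genes alone. What gland tissue in the samples adds to the members' values was not tested. The adipocyte markers were present in every library, and their sum was 580, 1335 and 844 FPKM in creeping fat, against 8297, 3172 and 8557 FPKM in controls. All 8 of them fell. The 8 fibroblast markers all rose, with sums of 9783 to 13086 FPKM in creeping fat and 915 to 1194 FPKM in controls.

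Of the 39 tested members, Cdk4, Cdk6 and Rrm1 rose in creeping fat and Ccnd2, Cdkn2c, Cdkn1a and Rb1 fell, at an adjusted p under 0.05 in limma on log2(FPKM + 1) with Benjamini-Hochberg adjustment over all 12812 genes tested. That is 7.69% of the tested members higher, against 9.35% of all genes tested, and 10.3% lower, against 6.81%. The other 32 did not pass. The median difference of the tested members was 0.59 on this log2 scale, against 0.02 over all genes tested. It includes 7 members below 1 FPKM in both control 1 and control 3 and leaves out those too low to test. The median is therefore no support in itself. Values of the groups did not overlap for 10 members that were higher and 5 that were lower in creeping fat (25.6% and 12.8% of tested members, against 20.2% and 16.9% of all genes tested). Control 2 stood high among the members. It had the highest value of the controls in 87.2% of tested members, against 57.8% of all genes tested. Without it, 29 tested members rose and 4 fell (74.4% and 10.3%, against 22.6% and 14.5% of all genes tested), with a median of 1.02, against 0.13. Control 2 is the library that stood high in these genes, so this count is no independent support, and it includes 7 mitotic genes that reached the filter through creeping fat and control 2. Leaving out other libraries lowered the counts: without control 3 limma called 0 members higher (4 at an unadjusted p under 0.05) and 1 lower, against 4.89% and 2.39% of all genes tested, and without creeping fat 3 it called 1 higher and 1 lower, against 4.99% and 2.67%. Without creeping fat 2 and control 2 together, 26 rose and 5 fell, against 21.2% and 13.5% of all genes tested. This fit also leaves out control 2, so the same limit holds. A limma voom fit on recovered read counts with all 6 libraries called the same number of members, 3 higher and 4 lower, against 9.37% and 6.8% of its genes. At an unadjusted p under 0.05, limma had 12 members higher and 5 lower, against 17% and 13.7% of all genes tested.

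**Figure D2:**
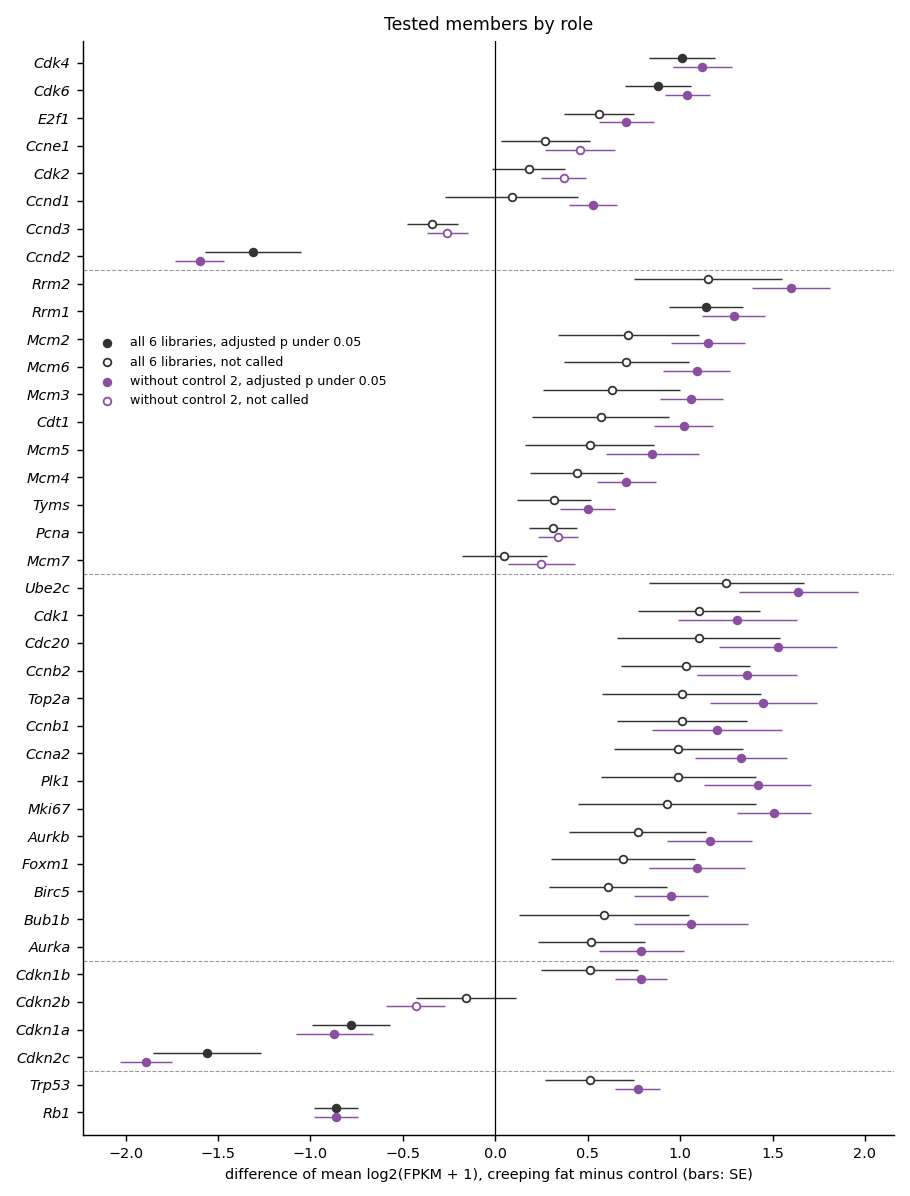
Differences on the log2(FPKM + 1) scale (x axis, creeping fat minus control), with limma's standard error, for the 39 tested members, in blocks from top to bottom of G1/S genes, replication, G2 and mitosis, kinase inhibitors, and Trp53 with Rb1. Dark points use all 6 libraries and purple points leave out control 2. Filled points passed an adjusted p of 0.05, and all 14 mitotic genes are open in dark and filled in purple. Without control 2, 22.6% of all genes tested were called higher. Control 2 stood high in the mitotic genes, so the purple calls are no independent support.

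Among the G1/S genes, the D cyclins were lower in sum in creeping fat and their kinases higher. Ccnd2, the D cyclin with the highest level in controls, had 32.8, 31.5 and 34.2 FPKM in creeping fat, against 110.9, 54.7 and 93.1 FPKM in controls. Every creeping fat library lay below every control, and control 2 was the lowest control. Ccnd2 (chr6:127125162-127152188) fell by 1.31 ± 0.26 (SE) on the log2 scale, adjusted p = 0.0181. The call was kept without control 1 or control 2 and was lost when any other single library was left out, with adjusted p from 0.00048 to 0.0789 and a difference of -1.60 to -1.10. Ccnd3, a D cyclin prominent in blood cells, had 33.5, 32.7 and 34.8 FPKM in creeping fat and 40.8, 48.4 and 40.4 FPKM in controls. Its groups did not overlap, but the difference of -0.34 ± 0.14 did not pass (adjusted p = 0.139). Ccnd1, the D cyclin that growth factors induce in many connective tissue cells, had 20.02, 22.4 and 22.0 FPKM in creeping fat and 13.5, 37.6 and 15.7 FPKM in controls. Control 2 held the highest value of all 6 and the other 2 controls the lowest. The difference for Ccnd1 was 0.09 ± 0.36 (adjusted p = 0.902) with all libraries and 0.53 ± 0.13 (adjusted p = 0.0174) without control 2, and it turned to -0.18 without control 1 and -0.08 without control 3.

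The 3 D cyclins together had 86.3, 86.6 and 91.0 FPKM in creeping fat, against 165, 141 and 149 FPKM in controls (88.0 ± 2.62 and 152 ± 12.4, SD, n = 3 each). The sums of the groups did not overlap. Ccnd2 made up 38.0%, 36.3% and 37.6% of that sum in creeping fat, against 67.2%, 38.9% and 62.4% in controls. Ccnd1 made up 23.2%, 25.9% and 24.2% in creeping fat, against 8.17%, 26.7% and 10.5% in controls. In both shares control 2 lay next to creeping fat, while in the sum it lay with the other controls.

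The kinases that the D cyclins activate went the other way. Cdk4 (chr10:127063535-127067288) had 60.96, 84.4 and 72.9 FPKM in creeping fat, against 32.3, 40.8 and 33.2 FPKM in controls, a ratio of means of 2.06. All creeping fat libraries lay above all controls, and Cdk4 rose by 1.01 ± 0.18 on the log2 scale (adjusted p = 0.0116). Its adjusted p was 0.0538 without creeping fat 3 and 0.0556 without control 3, and it was called without any one of the other 4 libraries. Cdk6 (chr5:3341004-3531008), the second D cyclin kinase, had 8.06, 8.03 and 7.58 FPKM in creeping fat, against 3.05, 5.10 and 3.59 FPKM in controls. The creeping fat libraries, with an SD of 0.27 FPKM, all lay above the controls. Cdk6 rose by 0.88 ± 0.18 (adjusted p = 0.0201); with 1 library left out it was called only without control 2 (0.00134), and otherwise the adjusted p reached 0.0872. Cdk4 and Cdk6 together had 69.0, 92.4 and 80.5 FPKM in creeping fat and 35.3, 45.9 and 36.7 FPKM in controls.

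The cyclin E step showed smaller differences. Cdk2, the partner of cyclins E and A, had 9.96, 10.9 and 11.95 FPKM in creeping fat and 8.26, 12.7 and 8.16 FPKM in controls, with a difference of 0.18 ± 0.20 (adjusted p = 0.604). Ccne1 had 1.58, 2.49 and 1.68 FPKM in creeping fat and 1.32, 2.16 and 0.895 FPKM in controls (0.27 ± 0.24, adjusted p = 0.511). Ccne2 lay between 0.62 and 0.711 FPKM in creeping fat and between 0.629 and 0.679 FPKM in controls, and these ranges overlap. E2f1, an activating E2F that is itself an E2F target, had 4.50, 4.06 and 3.83 FPKM in creeping fat and 1.82, 3.29 and 2.50 FPKM in controls. Its groups did not overlap. The E2f1 difference of 0.56 ± 0.19 had an adjusted p of 0.0933. Of 15 other settings, 4 called E2f1: quantile normalization (0.0352), median-of-ratios scaling (0.0498), and the fits without control 2 (0.011) and without both second libraries (0.0206). With any other single library left out E2f1 was not called (adjusted p up to 0.274), nor with no filter on low genes (0.152) or with voom (0.0841).

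**Figure D3:**
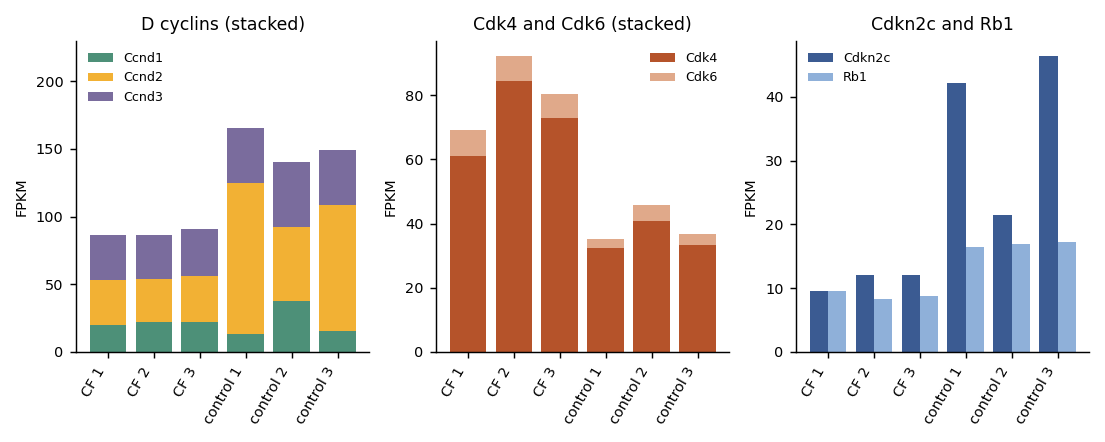
FPKM (y axes, from 0) in each library, CF being creeping fat: Ccnd1, Ccnd2 and Ccnd3 stacked, Cdk4 and Cdk6 stacked, and Cdkn2c beside Rb1. In creeping fat the D cyclins sum to 86.3 to 91.0 and Cdk4 with Cdk6 to 69.0 to 92.4 FPKM, against 141 to 165 and 35.3 to 45.9 FPKM in controls.

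Of the 5 kinase inhibitors among the members, 4 were tested. Cdkn2c and Cdkn1a fell and none rose, against 6.81% lower and 9.35% higher among all genes tested. Cdkn2c (chr4:109660876-109666756), an INK4 inhibitor of Cdk4 and Cdk6 known to be induced as fat cells differentiate in culture, had 9.62, 12.01 and 12.1 FPKM in creeping fat, against 42.2, 21.5 and 46.5 FPKM in controls. The highest creeping fat library lay below control 2, the lowest control. Cdkn2c fell by 1.56 ± 0.29 on the log2 scale (adjusted p = 0.015), a ratio of means of 0.307; the call was kept without creeping fat 2 and without control 2 and lost without any other single library (adjusted p up to 0.0692). The ratio of Cdk4 plus Cdk6 to Cdkn2c was 7.17, 7.70 and 6.63 in creeping fat, against 0.836, 2.14 and 0.791 in controls. This ratio sets genes called higher over a gene called lower, so its separation follows from those calls and is no further support. Adipocyte markers fell in the same libraries, with Adipoq at 80.1, 174 and 112 FPKM in creeping fat and 1536, 451 and 1388 FPKM in controls. Control 2 was the lowest control in Cdkn2c, Ccnd2 and Adipoq. Within creeping fat, library 2 was the highest in Adipoq, but the lowest in Ccnd2 and between the others in Cdkn2c. The part of the adipocytes in the differences of Cdkn2c and Ccnd2 was not tested.

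Cdkn1a (chr17:29090979-29100722), the CIP/KIP inhibitor best known as a p53 target, had 34.8, 36.3 and 24.7 FPKM in creeping fat, against 50.6, 48.6 and 67.0 FPKM in controls. The groups did not overlap, and Cdkn1a fell by 0.78 ± 0.21 (adjusted p = 0.0465). This call was close to the threshold: with 1 library left out it was kept only without control 2 (0.0184), and it was also lost with no filter on low genes (0.0653) and under median-of-ratios scaling (0.0646). Cdkn1b, the CIP/KIP inhibitor that accumulates in resting cells, had 24.8, 20.7 and 26.8 FPKM in creeping fat and 13.4, 25.1 and 13.4 FPKM in controls. Control 2 lay within the creeping fat range, and Cdkn1b was called only in fits without it: its difference was 0.51 ± 0.26 (adjusted p = 0.247) with all libraries and 0.79 ± 0.14 (adjusted p = 0.00588) without control 2. Cdkn2b, the INK4 inhibitor induced by TGF-beta, had 4.96, 5.96 and 4.07 FPKM in creeping fat and 6.85, 3.50 and 7.23 FPKM in controls (-0.16 ± 0.27, adjusted p = 0.754). Cdkn2a, whose row holds both the INK4 and the ARF transcript, had 0.901, 1.94 and 0.536 FPKM in creeping fat and 0.181, 2.54 and 0.446 FPKM in controls. Library 2 of each group held its highest value, and between 8 and 90 reads stood behind each.

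Rb1 (chr14:73192858-73325951), the substrate of these kinases, had 9.50, 8.30 and 8.79 FPKM in creeping fat, against 16.4, 16.9 and 17.3 FPKM in controls (8.86 ± 0.599 and 16.9 ± 0.414, SD, n = 3 each). Control 2 lay between the other 2 controls here. Rb1 fell by 0.86 ± 0.12 (adjusted p = 0.00643) and was the one member among the 7 called that was called without any single library, with differences of -0.90 to -0.82 and adjusted p from 0.00229 to 0.0373. Trp53, which encodes p53, had 29.1, 31.0 and 32.3 FPKM in creeping fat and 16.97, 31.2 and 18.3 FPKM in controls. Control 2 again lay within the creeping fat range, with a difference of 0.51 ± 0.24 (adjusted p = 0.201) with all libraries and 0.77 ± 0.12 (adjusted p = 0.00324) without it.

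Of the 12 replication genes, 11 were tested. Rrm1 rose and none fell, against 9.35% higher and 6.81% lower among all genes tested. In all 12, the highest control was control 2 and the highest creeping fat library was creeping fat 2. Rrm1 (chr7:102441695-102469771), the large subunit of the ribonucleotide reductase that makes deoxynucleotides, had 11.6, 15.5 and 11.2 FPKM in creeping fat, against 4.24, 6.53 and 4.95 FPKM in controls. Its groups were well apart, and it rose by 1.14 ± 0.20 on the log2 scale (adjusted p = 0.0112), a ratio of means of 2.44; without control 3 the adjusted p was 0.0534. Rrm2, the small subunit made in S phase, had 5.05, 7.50 and 5.73 FPKM in creeping fat and 0.944, 4.94 and 1.75 FPKM in controls. Creeping fat 1 was only just above control 2. The Rrm2 difference was 1.15 ± 0.40 (adjusted p = 0.102), as large as that of Rrm1 with a wider error, and 1.60 ± 0.21 (adjusted p = 0.00211) without control 2. Tyms, thymidylate synthase, had 1.96, 2.25 and 1.66 FPKM in creeping fat and 1.11, 2.02 and 1.06 FPKM in controls (0.32, adjusted p = 0.341).

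The helicase subunits Mcm2 to Mcm7 summed to 41.5, 57.5 and 46.3 FPKM in creeping fat and 21.4, 55.2 and 29.0 FPKM in controls. Control 2 lay between the 2 highest creeping fat libraries, and the other controls below all of them. Mcm6 had 7.81, 10.3 and 9.58 FPKM in creeping fat and 3.15, 9.49 and 4.51 FPKM in controls, with a difference of 0.71 ± 0.34 (adjusted p = 0.208), and 1.09 ± 0.18 (adjusted p = 0.00424) without control 2. Mcm2 had 5.72, 9.10 and 6.81 FPKM in creeping fat and 2.30, 8.05 and 3.01 FPKM in controls. In Mcm2 control 2 passed creeping fat 1 and creeping fat 3. Mcm3 had 8.67, 10.9 and 8.71 FPKM in creeping fat and 3.35, 11.1 and 4.69 FPKM in controls, Mcm4 had 6.17, 7.34 and 6.91 FPKM in creeping fat and 3.15, 7.24 and 4.49 FPKM in controls, and Mcm5 had 4.62, 7.57 and 5.63 FPKM in creeping fat and 2.03, 6.76 and 3.74 FPKM in controls. In each of Mcm2 to Mcm6, control 1 and control 3 lay below every creeping fat library. Their differences were 0.44 (Mcm4) to 0.72 (Mcm2) with adjusted p from 0.208 to 0.391, and 0.71 to 1.15 without control 2, where all 5 were called. That fit called 22.6% of all genes tested higher. It leaves out the control that stood high in these genes, so the 5 calls are no independent support. Mcm7 stood apart, with 8.56, 12.2 and 8.63 FPKM in creeping fat and 7.39, 12.6 and 8.57 FPKM in controls (0.05 ± 0.23, adjusted p = 0.911), and was not called without control 2 either (0.303). Of the licensing factors that load the helicase, Cdt1 had 4.73, 6.60 and 5.84 FPKM in creeping fat and 2.43, 7.33 and 2.18 FPKM in controls (0.57, adjusted p = 0.363). Cdc6 was low, with 0.653, 0.962 and 0.769 FPKM in creeping fat and 0.236, 1.04 and 0.476 FPKM in controls. Pcna, the sliding clamp of the polymerase, had the highest level of the 12, with 27.0, 29.5 and 26.5 FPKM in creeping fat and 21.8, 23.2 and 21.3 FPKM in controls. The groups did not overlap for Pcna, but its difference was small (0.31 ± 0.13, adjusted p = 0.148).

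No mitotic gene passed the test with all libraries, although all 14 that were tested had a positive difference, with a median of 0.99 on the log2 scale. Limma gave 6 of them an unadjusted p under 0.05 with a positive difference, against 17% of all genes tested. Limma voom on the recovered reads called 0, against 9.37% of its genes higher. Of the 14, 7 were below 1 FPKM in both control 1 and control 3 and entered the test through creeping fat and control 2, so the count and the median of tested genes are no support in themselves. Over all 17 mitotic genes, control 1 was the lowest of the 6 libraries in 17 (41.8% of all genes tested), control 1 and control 3 both lay below every creeping fat library in 17 (39.9% of all genes tested), and control 2 was the highest control in 17 (57.8%). The count on control 1 and control 3 sets aside control 2, which stood high in these genes, so it is no independent support. Creeping fat 2 was the highest of all 6 libraries in 16 (11.6% of all genes tested), with Bub1b as the exception. Control 2 reached or passed the lowest creeping fat library in 13 of 17, which is near the 69.8% of all genes tested. The groups did not overlap in 4 of 17, near the 20.2% of all genes tested.

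Mki67, which encodes the proliferation antigen Ki-67, had 5.68, 8.01 and 6.49 FPKM in creeping fat and 1.27, 7.97 and 2.20 FPKM in controls. Control 2 was 4.6 times the mean of the other 2 controls and level with creeping fat 2. The Mki67 difference was 0.93 ± 0.48 (adjusted p = 0.251), and 1.51 ± 0.20 (adjusted p = 0.00214) without control 2. Top2a, the topoisomerase that untangles sister chromatids, had 5.67, 9.86 and 5.13 FPKM in creeping fat and 1.29, 6.0 and 2.42 FPKM in controls (1.01 ± 0.43, adjusted p = 0.166). Here control 2 lay above creeping fat 1 and creeping fat 3.

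The 4 mitotic genes without overlap include those of the Cdk1 and cyclin B step. Cdk1 had 1.69, 4.34 and 1.79 FPKM in creeping fat and 0.254, 1.16 and 0.514 FPKM in controls. Ccnb1, the main mitotic cyclin, had 1.68, 4.13 and 1.41 FPKM in creeping fat and 0.144, 1.08 and 0.716 FPKM in controls, and Ccnb2 had 2.64, 5.29 and 2.49 FPKM in creeping fat and 0.568, 2.31 and 0.792 FPKM in controls. Ube2c had 4.63, 9.69 and 5.36 FPKM in creeping fat and 0.829, 4.31 and 1.95 FPKM in controls. For these 4 genes, named here for this lack of overlap, every creeping fat library lay above every control, by a narrow margin in Ccnb2 and Ube2c. As given above, 4 of 17 is near the 20.2% of all genes tested. None passed: the differences were 1.10 ± 0.33 for Cdk1 (adjusted p = 0.0696), 1.01 ± 0.35 for Ccnb1 (0.103), 1.03 ± 0.35 for Ccnb2 (0.0967) and 1.25 ± 0.42 for Ube2c (0.0937). The ratio of means was 4.05 for Cdk1, 3.72 for Ccnb1, 2.84 for Ccnb2 and 2.78 for Ube2c. Since the added 1 FPKM shrinks differences of such low genes, limma voom on recovered reads gave a Cdk1 difference of 2.19 (adjusted p = 0.0612). Without control 2 all 4 were called, with Ube2c at 1.64 ± 0.32 (adjusted p = 0.0087) and Cdk1 at 1.31 ± 0.32 (adjusted p = 0.0184). That fit called 22.6% of all genes tested higher and leaves out the highest control of these genes, so the 4 calls are no independent support.

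Ccna2, the S and G2 cyclin, had 3.07, 5.15 and 2.51 FPKM in creeping fat and 0.602, 2.57 and 0.955 FPKM in controls (0.99, adjusted p = 0.104), so that control 2 passed creeping fat 3 alone. Cdc20, the anaphase activator shown above, had 3.44, 7.25 and 3.77 FPKM in creeping fat and 0.548, 3.76 and 1.42 FPKM in controls (1.10 ± 0.44, adjusted p = 0.143). Plk1, a kinase of mitotic entry and cytokinesis, had 3.11, 5.73 and 2.49 FPKM in creeping fat and 0.535, 3.17 and 0.905 FPKM in controls (0.99, adjusted p = 0.163). In these 3 genes creeping fat 2 was the highest library, and control 2 passed at least 1 of the other creeping fat libraries. The Aurora kinases had smaller differences. Aurkb, of the chromosomal passenger complex, had 2.74, 4.85 and 3.18 FPKM in creeping fat and 0.733, 3.52 and 1.34 FPKM in controls (0.77, adjusted p = 0.214), and Aurka, of the spindle poles, had 1.89, 3.67 and 2.11 FPKM in creeping fat and 0.904, 2.51 and 1.14 FPKM in controls (0.52, adjusted p = 0.295). Birc5, the survivin subunit of the passenger complex, had 1.55, 2.39 and 1.39 FPKM in creeping fat and 0.294, 1.86 and 0.566 FPKM in controls (0.61, adjusted p = 0.257). Foxm1, a transcription factor of G2 and M genes, had 2.08, 4.14 and 2.04 FPKM in creeping fat and 0.548, 2.91 and 0.886 FPKM in controls (0.69, adjusted p = 0.29).

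The remaining mitotic genes belong to the spindle checkpoint and the kinetochore. Bub1b, a spindle checkpoint kinase, had 2.75, 5.20 and 4.43 FPKM in creeping fat and 0.783, 5.41 and 2.26 FPKM in controls (0.59, adjusted p = 0.45), and was the 1 mitotic gene in which control 2 was the highest library of all. Bub1, its partner at the kinetochore, had 0.502, 1.14 and 0.413 FPKM in creeping fat and 0.0177, 0.663 and 0.328 FPKM in controls. The control 1 value rests on 3 reads. Hmmr, a spindle-associated protein, had 0.915, 1.82 and 0.562 FPKM in creeping fat and 0.111, 0.672 and 0.198 FPKM in controls, and Cenpf, a kinetochore protein, had 0.84, 1.42 and 0.616 FPKM in creeping fat and 0.161, 0.863 and 0.292 FPKM in controls. The median mitotic member had 222, 443 and 221 reads in creeping fat and 46, 209 and 110 reads in controls, so counting error is larger here than for the G1 genes.

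**Figure D4:**
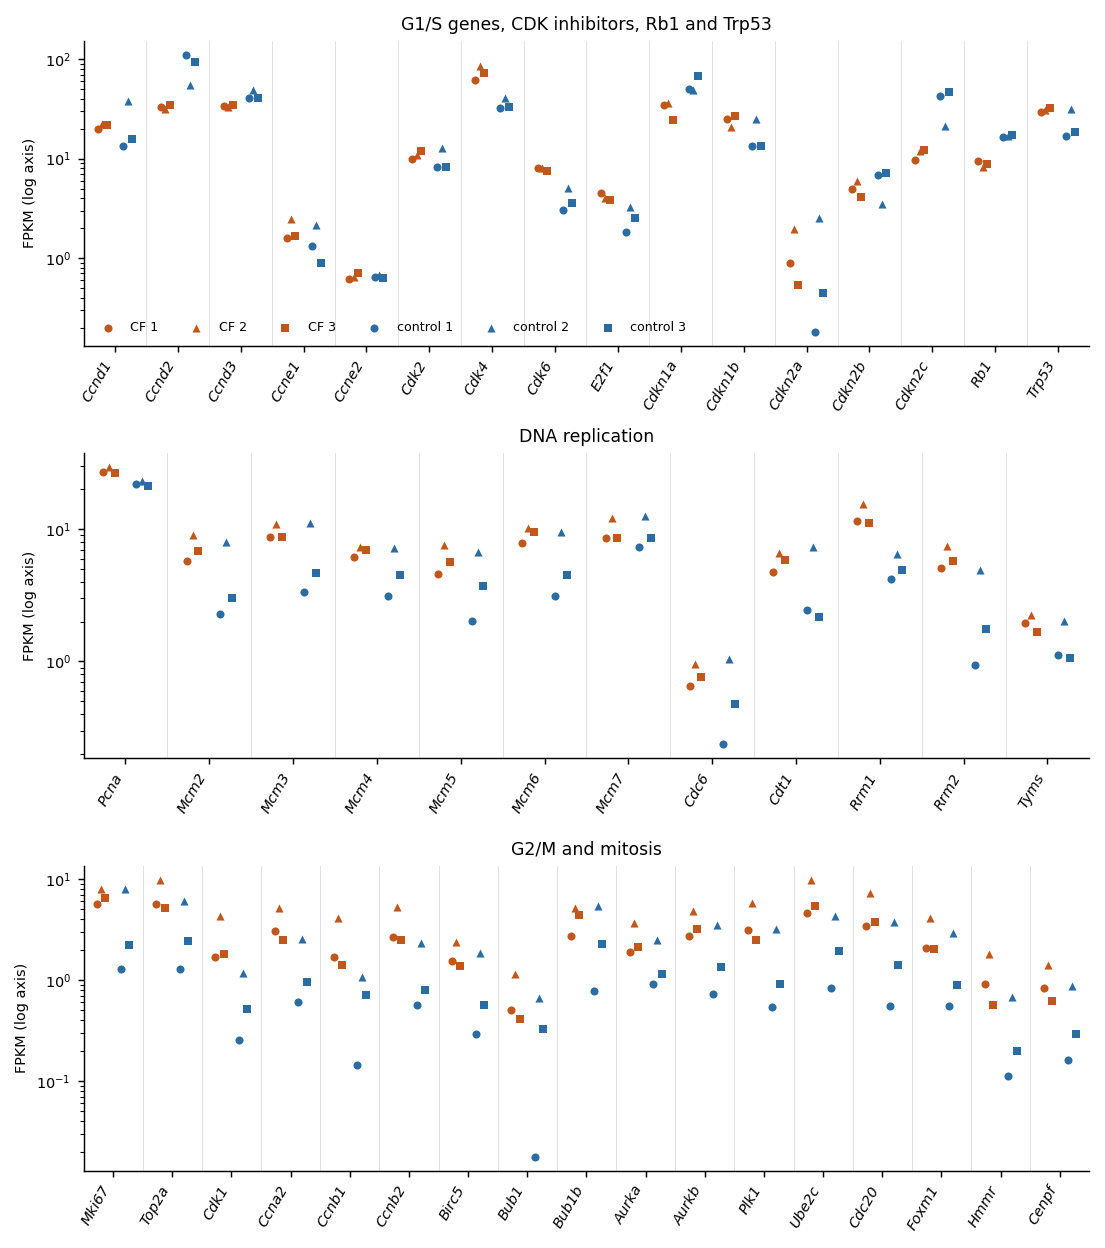
FPKM (log axis) of all 45 members in each library, creeping fat (CF) in orange left of controls in blue, with the replicate number as the shape; panels hold G1/S genes with inhibitors, Rb1 and Trp53, then replication, then G2 and mitosis. In all 17 mitotic genes the control 2 triangle is the highest control, and creeping fat 2 is the highest of all 6 libraries in 16.

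The size of the gap between the second library and its group differed by role. Creeping fat 2 was 1.32 (Mki67) to 2.67 (Ccnb1) times the mean of creeping fat 1 and 3 in mitotic genes, with a median of 1.95, against medians of 1.31 in replication genes, 0.996 in G1/S genes and 0.975 over all genes tested. Control 2 was 2.46 (Aurka) to 4.6 (Mki67) times the mean of control 1 and 3 in mitotic genes, with a median of 3.56, against 2.41 in replication genes, 1.52 in G1/S genes and 1.19 over all genes. Summed over the 17 mitotic genes, the levels were 44.9, 84.1 and 46.2 FPKM in creeping fat and 9.59, 50.7 and 18.9 FPKM in controls. The replication genes summed to 92.5, 120 and 97.9 FPKM in creeping fat and 52.1, 100 and 60.7 FPKM in controls. In both sums control 2 lay above creeping fat 1 and creeping fat 3.

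Markers of cells that can divide moved in different ways with these sums. The 8 B cell markers summed to 121, 45 and 197 FPKM in creeping fat and 98.7, 406 and 122 FPKM in controls, and the 9 T cell markers to 38.0, 28.1 and 58.5 FPKM in creeping fat and 26.4, 131 and 29.1 FPKM in controls. Control 2 was the highest library in both, as it was the highest control in mitotic genes, whereas creeping fat 2, the highest library in the mitotic sum, was the lowest creeping fat library in both. Germinal centre markers, listed as genes of dividing B cells, summed to 33.9, 23.3 and 34.5 FPKM in creeping fat and 13.8, 31.1 and 21.3 FPKM in controls. Of the 6, 1 was at 0 in creeping fat 1, creeping fat 2 and control 2. Only 2 of the 6 were tested, and 1 of these, S1pr2, rose by 1.66 (limma, adjusted p = 0.00474). S1pr2 had 15.96, 13.94 and 16.98 FPKM in creeping fat and 3.15, 6.02 and 3.93 FPKM in controls. A large part of the creeping fat sums thus came from this gene alone, so they were not taken as a measure of dividing B cells. The 10 macrophage markers, of which 7 rose, summed to 4314, 2662 and 4651 FPKM in creeping fat and 624, 1114 and 1034 FPKM in controls, and the defining gene Adgre1 had 80.1, 58.4 and 80.8 FPKM in creeping fat and 11.8, 34.6 and 20.9 FPKM in controls. Creeping fat 2 was the lowest of its group in this sum and the highest in the fibroblast sum (12327, 13086 and 9783 FPKM), whereas control 2 was the lowest control in the fibroblast sum (1110, 915 and 1194 FPKM). Endothelial markers, of which 2 of 8 fell, summed to 260, 221 and 201 FPKM in creeping fat and 309, 329 and 307 FPKM in controls. Plasma and mast cell markers summed to 377, 301 and 652 FPKM in creeping fat and 57.3, 376 and 92.3 FPKM in controls. The part of any of these cells in the members' values was not tested.

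**Figure D5:**
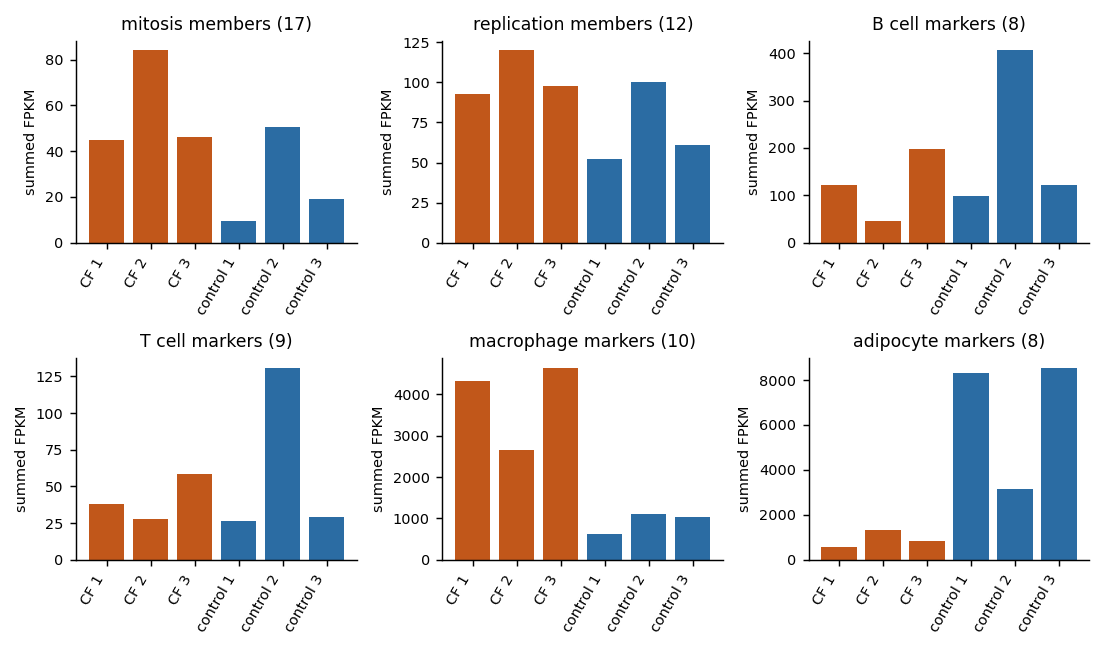
Summed FPKM (y axes, from 0) in each library of the 17 mitosis members, the 12 replication members, 8 B cell, 9 T cell, 10 macrophage and 8 adipocyte markers, with creeping fat (CF) in orange and controls in blue. Creeping fat 2 is highest in the mitosis sum (84.1 FPKM) and lowest in the B cell sum (45 FPKM); control 2 is the highest control in the mitosis sum (50.7 FPKM) and the highest library in the B cell sum (406 FPKM).

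The other genes of the pathway, taken from lists of replication, mitosis and G1/S genes outside the 45, held 1 gene that rose and 1 that fell. Among all genes tested, 9.35% rose and 6.81% fell. Of 49 other mitosis genes, 29 were tested and none passed, with a median difference of 0.47. In limma, 5 of the 29 were higher at an unadjusted p under 0.05, against 17% of all genes tested. Limma voom called 0. Without control 2, 18 of the 29 rose and 2 fell, against 22.6% and 14.5% of all genes tested. Of the 29, 8 were below 1 FPKM in both control 1 and control 3. Control 2 was the highest control in 43 of the 49. The median and the count without control 2 are therefore no independent support. In 40 of the 49, both control 1 and control 3 lay below every creeping fat library, against 39.9% of all genes tested. This count also sets aside control 2, so it is no independent support either. Of their most abundant genes, Bub3, a checkpoint protein, was higher in creeping fat without overlap but had a difference of only 0.19 ± 0.12 (adjusted p = 0.33). Zwint, of the kinetochore, had 13.8, 14.5 and 12.2 FPKM in creeping fat and 21.4, 12.03 and 22.1 FPKM in controls (-0.38 ± 0.24, adjusted p = 0.341), and without control 2 it fell by 0.65 (adjusted p = 0.0071). Of 44 other replication genes, 40 were tested and none passed, with a median of 0.16. At an unadjusted p under 0.05 in limma, 2 were higher and 1 lower, against 17% and 13.7% of all genes tested. Limma voom called 0 of the 40. Without control 2, 15 of the 40 rose, against the same 22.6%. Of these 40, 3 were below 1 FPKM in both control 1 and control 3. Control 2 was the highest control in 35 of the 44, so the same limit holds. Rfc2, of the clamp loader, differed by 0.30 ± 0.20 (adjusted p = 0.361), and Rpa1, which binds single-stranded DNA, by -0.03 ± 0.14 (adjusted p = 0.917). Of 22 other G1/S, E2F and DREAM genes, 20 were tested. Cks2, a small partner of the kinases, had 4.98, 5.82 and 4.12 FPKM in creeping fat and 1.45, 2.03 and 3.09 FPKM in controls and rose by 0.93 ± 0.23 (adjusted p = 0.0346). With 1 library left out, Cks2 was called only without control 2 or control 3 (otherwise up to 0.122), and it was lost with no filter on low genes (0.0688) and with voom (0.0796). Lin52, a DREAM subunit, had 3.54, 2.84 and 3.24 FPKM in creeping fat and 5.56, 4.70 and 5.35 FPKM in controls and fell by 0.56 ± 0.14 (adjusted p = 0.0392). With 1 library left out, Lin52 was called only without control 2 (otherwise up to 0.156), and it was lost with no filter on low genes (0.0745) and under quantile normalization (0.0714) and median-of-ratios scaling (0.052).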

How the data were processed

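The authors deposited 1 table of FPKM values for 22134 gene symbols in 6 libraries. Per the labels' protocols, ribosomal RNA was removed and libraries were stranded. The submitters' processing notes name mm10 as the build. Aligner, annotation and use of strand in counting are not given in the sources used here, so overlapping genes cannot be told apart. Values were set to log2(FPKM + 1), genes reaching 1 FPKM in 3 or more libraries were tested in limma 3.58.1 (R 4.3.3; lmFit and eBayes with trend, group as the only term), and Benjamini-Hochberg adjustment ran over all 12812. The added 1 understates the change of low genes. An exact permutation test of 3 against 3 cannot give p under 0.1. The members and lists were chosen with earlier results of these data known. Named genes were all members and, of each other list, up to 3 called rises and falls without overlap or the 2 most abundant genes. Of the genes that this rule names, several markers are not reported here. The pancreas list matched 24 of 25 symbols. FPKM steps gave whole reads (tolerance 0.002) for 18668 of 18714 genes above 0, and reads in genes made up 98.76% to 99.09% of the library totals. For a gene of 1 kilobase, 3 reads (the floor) equal 0.0691 to 0.0962 FPKM, which covers counting error only. The limma fit was tested on simulated data. Coordinates are RefSeq spans on GRCm38.p6. Other filters, pseudocounts, scalings, a replicate block, voom on recovered reads (added after seeing the data) and leaving out libraries were tried.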

Additional observations from a re-analysis of the deposited data

How the results depend on the processing

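Leaving out 1 library at a time gave 576 to 2896 genes higher and 287 to 1857 lower, against 1198 and 872 with all 6, and 0 to 29 members higher and 1 to 4 lower, against 3 and 4; the highest value of each was that without control 2, and no member was higher without control 3. Leaving out any library but control 2 lowered both gene counts. Without creeping fat 2 and control 2 together, 2713 genes were higher and 1731 lower, with 26 members higher. With 1 library left out at a time, the difference of Ccnd1 ran from -0.18 (without control 1) to 0.53 (without control 2) and was -0.08 without control 3. That of Mcm7 ran from -0.10 (without creeping fat 2) to 0.25 (without control 2) and was -0.09 without control 1, that of Cdkn2b from -0.43 (without control 2) to 0.0006 (without control 3), and that of Rpa1 from -0.13 (without control 1) to 0.06 (without control 2). Without both second libraries Rpa1 was at 0.05. The cause was not tested. Other filters, pseudocounts and scalings changed no member's direction, kept the median of all genes between -0.03 and 0.03, and among members changed the calls of Cdkn1a and E2f1 only. Voom on recovered reads called 1198 genes higher and 869 lower.

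Deviations of same-numbered libraries correlated at -0.18, -0.18 and -0.08 over the genes tested, and no creeping fat library correlated best with its own number. The numbers were therefore not taken as pairs. These correlations do not show whether same-numbered libraries share an animal or a batch. In all 17 mitotic and all 12 replication members, library 2 was the highest of its group in both groups. With the replicate block, 636 genes were higher and 378 lower, with 6 members higher (Cdk4, Rrm1, Cdk1, Ccnb2, Cdc20 and Ube2c) and 3 lower; Cdk6 and Cdkn1a were not called. Depth limits the low mitotic genes, where Bub1 in control 1 rests on 3 reads.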

Other observations

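Other brakes on proliferation and p53 targets were measured outside the 45 genes. Of 10 other brakes, 3 rose and none fell, against 9.35% and 6.81% of all genes tested, with a median difference of 0.34 on the log2 scale, against 0.02 over all genes tested. Gas1, a membrane protein first known from growth-arrested fibroblasts, had 124.9, 115 and 143 FPKM in creeping fat, against 34.5, 16.6 and 32.5 FPKM in controls, and rose by 2.21 ± 0.29 (limma, adjusted p = 0.00462). Gadd45g, a stress-induced inhibitor, had 27.5, 24.4 and 21.3 FPKM in creeping fat, against 9.21, 10.3 and 8.37 FPKM in controls (1.30 ± 0.15, limma adjusted p = 0.0036). Cdkn1c, the third CIP/KIP inhibitor and an imprinted gene, had 13.4, 16.1 and 15.3 FPKM in creeping fat, against 6.04, 4.02 and 7.44 FPKM in controls (1.25 ± 0.21, limma adjusted p = 0.0106). All 3 were called whichever single library was left out.

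Of 18 p53 target genes, 4 rose and 2 fell, against the same 9.35% and 6.81%, with a median of 0.01. Perp, a desmosome-linked effector, had 6.60, 8.73 and 6.90 FPKM in creeping fat, against 3.07, 3.34 and 2.79 FPKM in controls (1.04 ± 0.15, limma adjusted p = 0.00703). Phlda3, an inhibitor of Akt, had 36.0, 36.7 and 36.3 FPKM in creeping fat, against 218, 78.1 and 143 FPKM in controls (-1.86 ± 0.35, limma adjusted p = 0.0146; with 1 library left out it was called without creeping fat 2, control 1 or control 2, and otherwise the adjusted p reached 0.0639). Control 2 was the lowest control, as in Cdkn2c and Ccnd2.

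Cdk1 as a percentage of the Mcm2 to Mcm7 sum was 4.06, 7.55 and 3.87 in creeping fat, against 1.19, 2.11 and 1.77 in controls. By this ratio control 2 lay below all creeping fat libraries, although its helicase sum of 55.2 FPKM was second only to that of creeping fat 2. The ratio of all 17 mitotic to all 12 replication genes did overlap: it was 0.485, 0.701 and 0.472 in creeping fat and 0.184, 0.506 and 0.311 in controls, so control 2 lay above creeping fat 1 and creeping fat 3. Both ratios were computed after the values were seen and were not tested.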
